A study of Mus musculus with 2 samples.

Results

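The genes described here are 10 non-collagen genes of the basement membrane: the laminin chains Lama2, Lama4, Lama5, Lamb1, Lamb2 and Lamc1, the nidogens Nid1 and Nid2, and the heparan sulfate proteoglycans Hspg2 (perlecan) and Agrn (agrin). The list is defined by the genes' known place in the basement membrane and uses no measured value, although earlier results of these data were known when it was drawn up, and all 10 of them are among the 32285 genes counted in cultured progenitors of white (WAT) and brown (BAT) adipose tissue. Subcutaneous white and interscapular brown depots of male and female C57/BL6J mice at postnatal day 0 were digested with collagenase for 35 and 50 minutes, respectively, and adherent cells were grown to confluency in 4 days before single-cell RNA sequencing. The pups carried no genetic change and the cultures received no treatment. Tissue of 4 pups was pooled, and there was 1 library per depot, so no value below has a replicate and depot cannot be told apart from digestion time or library. Age and culture time are those of the labels, and the study's text differs slightly on both. Cluster names were taken from a shortened copy of the study's source data, which holds the first 1999 precursor cells of each library, and the names of its further cells were not used here. The libraries held 144451047 (white) and 205551320 (brown) UMIs in all, and a count of transcripts from a culture cannot tell a change per cell from a change in the mix of cells.

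Basement membranes are thin sheets of extracellular matrix that surround fat cells, muscle fibres, nerves and blood vessels. A laminin is a trimer of 1 alpha, 1 beta and 1 gamma chain, and its alpha chain carries the sites bound by integrins and dystroglycan. Nidogens bridge the laminin gamma chain Lamc1 to the type IV collagen network, and perlecan and agrin bind laminin and carry heparan sulfate chains. Around mature fat cells this sheet is prominent, and laminin alpha 4 is the alpha chain best known in adipose tissue, whereas alpha 2 is known from muscle and peripheral nerve and alpha 5 from vessels and epithelia.

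Levels are given as CPM, the summed UMIs (unique molecular identifiers, 1 per captured transcript) of a gene per 1000000 UMIs of the same cells, with an exact 95% Poisson interval. Ratios are log2 ratios of 2 such levels with a conditional binomial interval. These intervals cover counting error only. The clusters were made by the authors from the same cells and genes, so differences between clusters are a description. The study named 4 early white clusters (wAPC 1 to 4), 5 early brown clusters (bAPC 1 to 5), committed adipogenic precursors (wCAPs and bCAPs), fibro-adipogenic progenitor-like cells (wFAPLs and bFAPLs) and differentiating wFAPLs, which are only 15 labelled cells. The names were checked against marker genes. Cdca3 was highest in wAPC 3 at 101 CPM and bAPC 3 at 109, and Igf1 among brown clusters in bAPC 5 at 179. The labelled precursor cells had medians of 27204 (white) and 26900 (brown) UMIs per cell. All 5 precursor markers (Pdgfra, Pdgfrb, Dlk1, Lum and Dcn) reached 10 CPM in 13 of the 14 clusters, and 3 of 5 did so in differentiating wFAPLs, where 1 was at 0. The 6 mural markers (Rgs5, Kcnj8, Abcc9, Notch3, Cspg4 and Myh11) summed to 44.4 to 101 CPM in the early clusters and CAPs, 278 in wFAPLs, 254 in bFAPLs and 2921 in differentiating wFAPLs. No mural marker was at 0 in these FAPL clusters, while the 5 endothelial markers summed to at most 10.0 CPM in any precursor cluster. That highest endothelial sum was in wFAPLs, against 3.40 in wCAPs, with Cdh5 at 7.81 and 0.619 CPM. The 5 myeloid markers summed to 32.8 CPM in wFAPLs against 6.86 in wCAPs, with Lyz2 at 19.9 and 2.48, and to 14.2 in bFAPLs against 9.87 in bCAPs. Their part in the differences below was not tested. The 2 libraries shared 9 cell barcodes.

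By GENCODE on GRCm38, Lama2 (ENSMUSG00000019899) lies at chr10:26980036-27619758 on the minus strand and Lama4 (ENSMUSG00000019846) at chr10:38965515-39110188 on the plus strand. Lama5 (ENSMUSG00000015647) lies at chr2:180176373-180225859 on the minus strand. The beta chain genes are Lamb1 (ENSMUSG00000002900, chr12:31265234-31329644, plus strand) and Lamb2 (ENSMUSG00000052911, chr9:108479736-108490530, plus strand), and Lamc1 (ENSMUSG00000026478) lies at chr1:153218922-153332786 on the minus strand. Nid1 (ENSMUSG00000005397, chr13:13437551-13512269) and Nid2 (ENSMUSG00000021806, chr14:19751265-19811787) are both on the plus strand. Hspg2 (ENSMUSG00000028763, chr4:137468769-137570630, plus strand) and Agrn (ENSMUSG00000041936, chr4:156165290-156197488, minus strand) share a chromosome.

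The stretches upstream of the start sites of 4 genes are shown because their summed levels differed between FAPLs and CAPs below. Lama2, Lamb2 and Lama5 were higher in FAPLs and Lamb1 was lower. Lama5 was under 10 CPM in these clusters, with a UMI in 10.9% of wFAPLs and 9.32% of bFAPLs. Its log2 ratio in white cells was -0.13 without cells with UMIs of Myh11 or Rgs5, as given below. The table of RefSeq start sites used here matched 7 of the 10 genes, and Lama4, Lamc1 and Nid2 were not matched. The sequences are from RefSeq on GRCm38.p6, 5′ to 3′ on the gene's strand, and end at the start site or before the first annotated exon base of another transcript of the same gene.
Lama2 (chr10:27616943-27617192, minus strand): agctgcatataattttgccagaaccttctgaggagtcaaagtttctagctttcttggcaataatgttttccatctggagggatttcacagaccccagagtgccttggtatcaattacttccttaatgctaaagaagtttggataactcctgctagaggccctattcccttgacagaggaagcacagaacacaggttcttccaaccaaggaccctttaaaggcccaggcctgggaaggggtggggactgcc
Lamb2 (chr9:108479612-108479735, plus strand): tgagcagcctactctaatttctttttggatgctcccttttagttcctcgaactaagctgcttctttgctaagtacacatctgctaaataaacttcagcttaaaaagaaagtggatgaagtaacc
Lama5 (chr2:180225860-180226109, minus strand): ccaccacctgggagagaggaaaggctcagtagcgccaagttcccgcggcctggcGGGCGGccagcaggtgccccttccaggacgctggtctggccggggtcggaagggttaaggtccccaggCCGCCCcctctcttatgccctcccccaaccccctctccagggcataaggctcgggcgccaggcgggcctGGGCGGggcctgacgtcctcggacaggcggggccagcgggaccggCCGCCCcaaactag
Lamb1 (chr12:31265043-31265233, plus strand): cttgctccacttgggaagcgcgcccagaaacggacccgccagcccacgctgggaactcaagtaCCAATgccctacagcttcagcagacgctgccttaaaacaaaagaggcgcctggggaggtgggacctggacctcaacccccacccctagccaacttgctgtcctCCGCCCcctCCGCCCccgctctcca
Capitals mark matches, on either strand, to the 5 motifs searched: the GC box (GGGCGG), AP-1 (TGANTCA), TEAD (CATTCC), the TATA box (TATAAA) and the CCAAT box (CCAAT), none of which contains another. The Lama5 stretch held 4 GC boxes and the Lamb1 stretch 2 GC boxes and 1 CCAAT box, while neither the Lama2 nor the Lamb2 stretch held any of the 5. The Lama2 stretch lies inside the gene span given above. It is upstream of the RefSeq start used and not of the outermost GENCODE start, which was not searched. The Lamb2 and Lamb1 stretches are 124 and 191 bases long, and over the full 250 bases their counts of matches were the same. GC boxes lie within 250 bases upstream of 32.7% of all 32851 RefSeq start sites and CCAAT boxes of 33.8%, against 6.75% for AP-1, 12.6% for TEAD and 12.4% for the TATA box. The GC content was 47.2% for Lama2, 37.9% for Lamb2, 72.4% for Lama5 and 63.9% for Lamb1, with a median of 52.4% over all start sites. The motifs were chosen after the levels had been seen, and a match is a run of letters and not a binding site.

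Together, the 10 genes made up 986 CPM (977 to 994) of white and 1008 CPM (999.7 to 1016) of brown precursor cells. Among the 13 clusters with at least 50 cells their sum ran from 811 CPM in wAPC 3 and 839 in bAPC 3, the clusters with high Cdca3 and Kif20a, to 1122 in wAPC 4 and 1082 in bAPC 5. The sum was close in CAPs and FAPLs: 1031 CPM (1016 to 1045) in wCAPs and 1034 (1011 to 1058) in wFAPLs, and 1026 (1004 to 1048) in bCAPs and 1067 (1044 to 1091) in bFAPLs. Behind these close sums, the genes that supplied them differed.

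**Figure D1:**
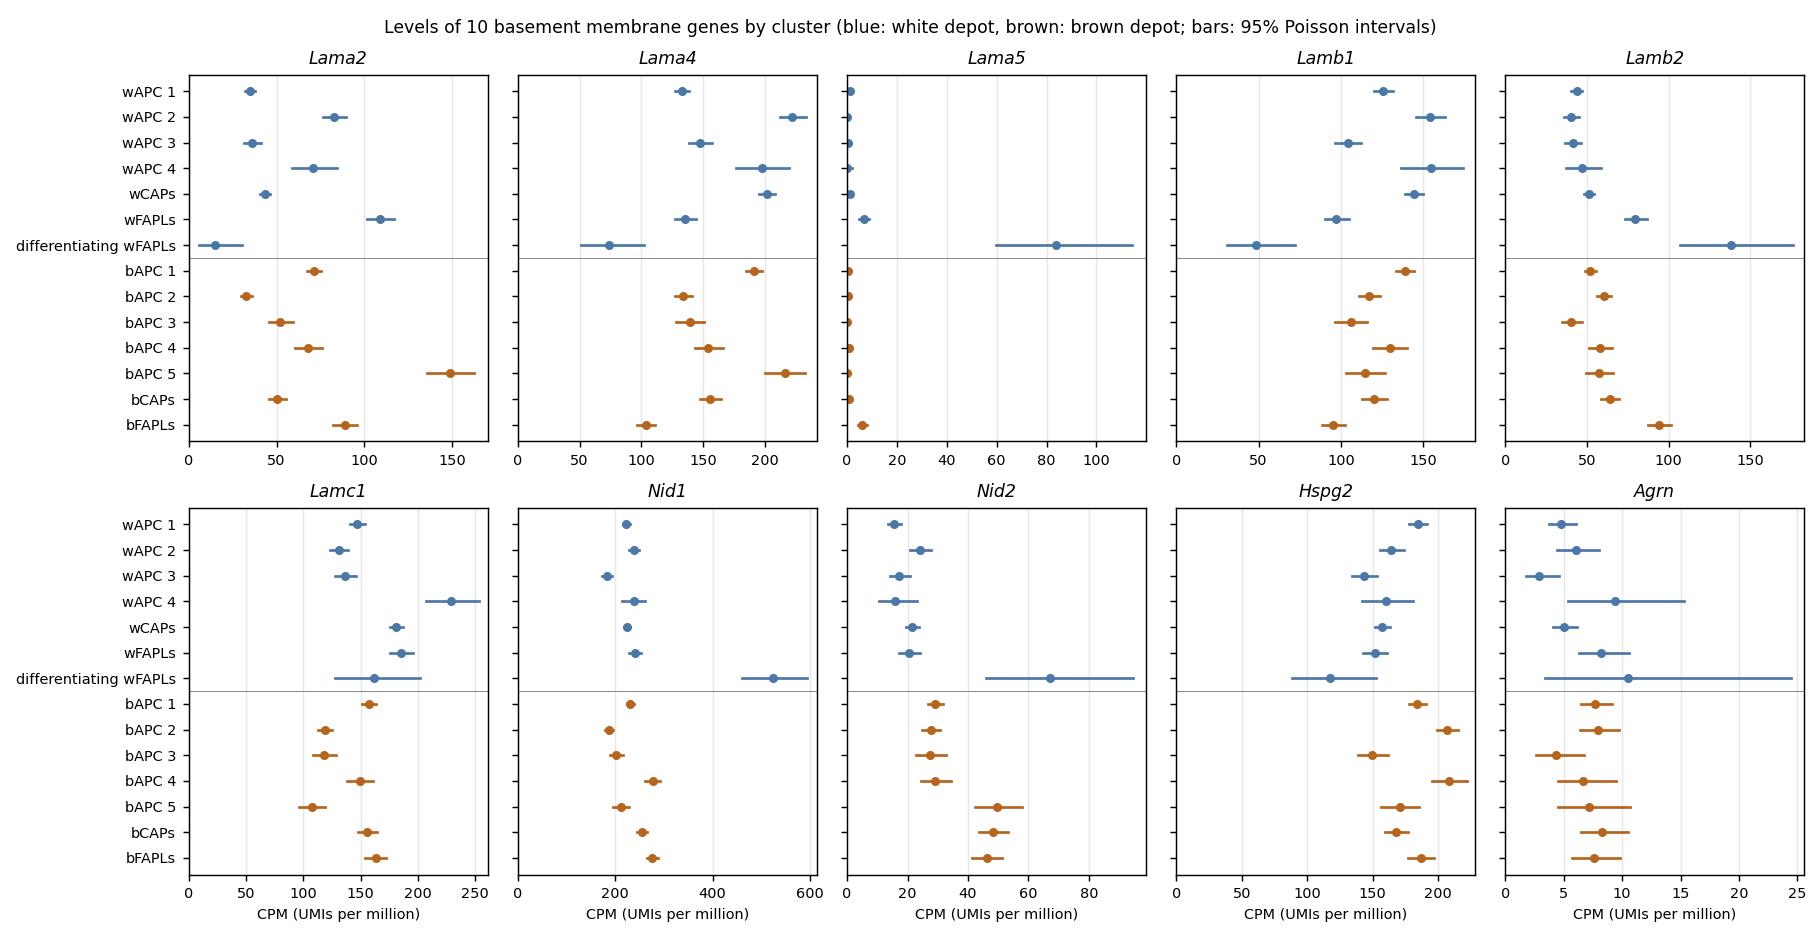
Level of each of the 10 genes (CPM, horizontal axis, on a scale of its own for each gene) in the 7 white (blue) and 7 brown (brown) precursor clusters; points are CPM of summed UMIs and bars exact 95% Poisson intervals. Lama2 and Lamb2 lie higher in FAPLs than in CAPs and Lama4 and Lamb1 lower, and Lama5 stands out at 83.9 CPM in differentiating wFAPLs.

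Among the laminin alpha chains, Lama4 was the main one by UMIs. In the white clusters its level was 222 CPM (212 to 233) in wAPC 2, 202 (195 to 208) in wCAPs, 197 (177 to 220) in wAPC 4, 147 (138 to 157) in wAPC 3, 136 (127 to 144) in wFAPLs, 133 (127 to 139) in wAPC 1 and 73.4 (51.1 to 102) in differentiating wFAPLs. The brown clusters followed with 216 (200.4 to 233) in bAPC 5, 191 (185 to 198) in bAPC 1, 156 (147 to 164) in bCAPs, 154 (143 to 166) in bAPC 4, 139 (128 to 151) in bAPC 3, 134 (128 to 141) in bAPC 2 and 103 (96.2 to 111) in bFAPLs. In brown cells FAPLs were thus the lowest cluster, apart from all others, while in white cells wFAPLs could not be ordered against wAPC 1 or wAPC 3. The intervals of bCAPs, bAPC 4, bAPC 3 and bAPC 2 overlapped from each neighbour to the next.

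Lama2, the alpha chain of muscle and nerve laminins, was ordered otherwise. In white cells it was highest in wFAPLs at 109 CPM (101 to 117), followed by 83.0 (76.7 to 89.6) in wAPC 2 and 70.7 (58.6 to 84.6) in wAPC 4, which overlapped, then 43.5 (40.6 to 46.5) in wCAPs, 36.0 (31.5 to 40.9) in wAPC 3, 34.7 (31.8 to 37.9) in wAPC 1 and 14.7 (5.90 to 30.2) in differentiating wFAPLs. In brown cells the highest level was not in FAPLs but in the Igf1-high cluster bAPC 5, at 149 CPM (136 to 163), with 88.9 (82.3 to 95.9) in bFAPLs, 71.1 (67.2 to 75.2) in bAPC 1, 67.8 (60.6 to 75.7) in bAPC 4, 52.0 (45.5 to 59.2) in bAPC 3, 50.2 (45.5 to 55.3) in bCAPs and 32.8 (29.7 to 36.2) in bAPC 2. Among clusters of at least 50 cells, Lama2 therefore spanned 3.13-fold in white and 4.53-fold in brown cells, against 1.68-fold and 2.09-fold for Lama4. UMIs of Lama2 were found in 80.9% of wFAPLs and 47.0% of wCAPs, and in 57.4% and 27.3% of these cells after thinning each cell to 10000 UMIs. In myeloid cells, which should lack it, they were found in 7.14% (white) and 18.5% (brown), at medians of 25124 and 29269 UMIs per cell.

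Lama5 was scarce. It was at 2.21 CPM (1.85 to 2.63) in white and 1.12 (0.868 to 1.43) in brown precursor cells, and at most 1.11 CPM in every early cluster and in CAPs. Its level was 6.69 CPM (4.94 to 8.88) in wFAPLs and 5.97 (4.35 to 7.99) in bFAPLs, where 10.9% and 9.32% of cells had a UMI, and no UMI was seen in wAPC 4, bAPC 3 or bAPC 5, which allows up to 1.77, 0.685 and 0.929 CPM. The 15 differentiating wFAPLs reached 83.9 CPM (59.9 to 114), with a UMI in 93.3% of them, and the level was 88.0 CPM when labels carried over to unlabelled cells raised that cluster to 29 cells.

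FAPLs and CAPs are the 2 later states that the study set against each other in each depot. Of the 10 genes, 8 had at least 10 CPM in either group and could be counted against a 2-fold limit. Lama2 was the only one past it in white cells, at a log2 ratio of wFAPLs over wCAPs of 1.32 (1.18 to 1.47), or 2.50-fold higher. That is 1 of 8 higher, where 2.25% of all 9199 genes at that level were higher, and 0 of 8 lower, where 1.60% were. In brown cells, 0 of 8 passed in either direction, against 1.86% of 9148 genes higher and 2.01% lower, and Lama2 had a ratio of 0.82 (0.64 to 1.00). The median log2 ratio over the 8 genes was 0.07 in white and 0.09 in brown cells, against -0.01 and -0.04 over all genes counted.

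Smaller differences ran the same way in both depots. Lamb2, the beta chain of neuromuscular and kidney laminins, was at 79.6 CPM (73.2 to 86.4) in wFAPLs and 51.2 (48.0 to 54.4) in wCAPs, and at 94.3 (87.5 to 102) in bFAPLs and 64.0 (58.6 to 69.7) in bCAPs, with log2 ratios of 0.64 (0.49 to 0.79) and 0.56 (0.39 to 0.73). Lama4 was lower in FAPLs, at -0.57 (-0.68 to -0.47) in white and -0.59 (-0.72 to -0.46) in brown cells. Lamb1, the widespread beta chain, was also lower, at 97.2 CPM (90.1 to 105) in wFAPLs against 144 (139 to 150) in wCAPs and 95.1 (88.3 to 102) in bFAPLs against 120.2 (113 to 128) in bCAPs, or -0.57 (-0.69 to -0.45) and -0.34 (-0.48 to -0.20). Lama5 fell below the level needed for the 2-fold count, with ratios of 2.77 (1.98 to 3.62) and 3.03 (1.80 to 4.55) from 19 UMIs in wCAPs and 6 in bCAPs.

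The gamma chain and the nidogens were close in these states. Lamc1, the gamma chain of nearly all laminins in soft tissue, had log2 ratios of 0.03 (-0.06 to 0.12) and 0.07 (-0.05 to 0.18). Nid1 had 0.10 (0.02 to 0.18) and 0.11 (0.03 to 0.20), and Nid2 -0.07 (-0.35 to 0.20) and -0.07 (-0.28 to 0.14). Perlecan (Hspg2) was at -0.05 (-0.15 to 0.05) in white and 0.16 (0.05 to 0.26) in brown cells, and agrin (Agrn), which was under 10 CPM in all 4 clusters, at 0.72 (0.23 to 1.20) and -0.13 (-0.67 to 0.40).

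**Figure D2:**
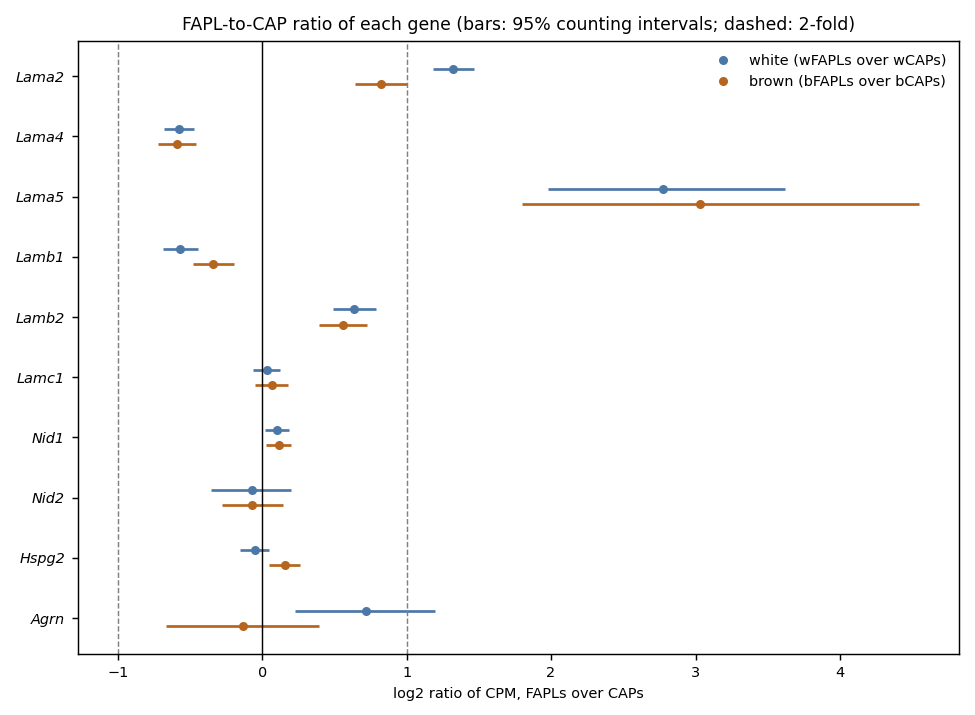
Log2 ratio of CPM in FAPLs over CAPs for each gene (horizontal axis), in the white (blue) and brown (brown) library, with 95% counting intervals; dashed lines mark 2-fold. Lama2 and Lamb2 lie to the right of 0 and Lama4 and Lamb1 to the left in both depots, while Lamc1 and Nid2 have intervals that include 0 in both.

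As a share of the UMIs of the 5 laminin alpha chains, Lama4 made up 78.9% (77.7 to 80.0) in wCAPs and 51.7% (49.4 to 53.9) in wFAPLs. In brown cells its share was 69.5% (67.4 to 71.6) in bCAPs and 49.1% (46.6 to 51.6) in bFAPLs. The share of Lama2 was 17.0% in wCAPs against 41.5% in wFAPLs, and 22.5% against 42.2% in bCAPs and bFAPLs. Over all labelled precursor cells Lama4 made up 72.4% (71.7 to 73.2) in white and 67.0% (66.2 to 67.8) in brown cells. In differentiating wFAPLs, Lama5 with 44.9% and Lama4 with 39.3% were the leading alpha chains. These are shares of captured transcripts, since each transcript gives 1 tag at its 3′ end whatever its length, and capture can differ between genes.

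**Figure D3:**
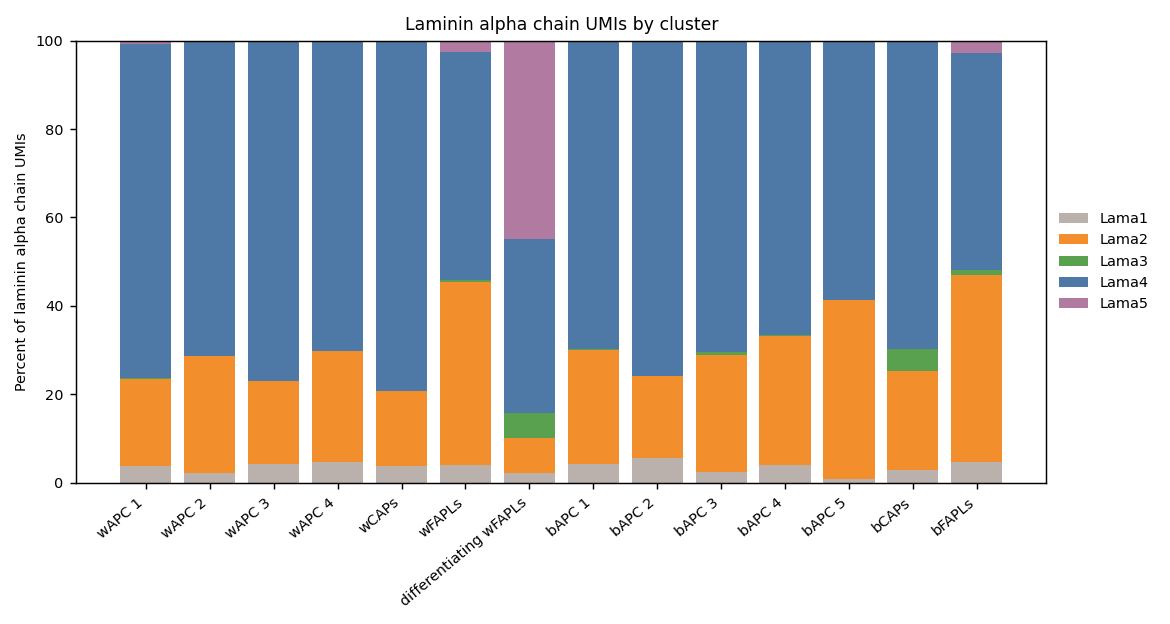
Share of the UMIs of the 5 laminin alpha chains (percent, vertical axis) held by each chain in the 14 labelled precursor clusters. Lama4 (blue) holds 78.9% in wCAPs and 51.7% in wFAPLs, 69.5% in bCAPs and 49.1% in bFAPLs, and Lama5 (purple) is visible as a large share only in differentiating wFAPLs.

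The beta chains showed a like shift. Lamb2 held 26.1% (24.7 to 27.5) of beta chain UMIs in wCAPs and 45.0% (42.2 to 47.7) in wFAPLs, 34.5% (32.1 to 36.9) in bCAPs and 49.5% (46.9 to 52.2) in bFAPLs, and 74.2% (63.8 to 82.9) in differentiating wFAPLs. The gamma chains did not, as Lamc1 held 98.6 to 99.6% of their UMIs in CAPs and FAPLs. Within single cells thinned to 10000 UMIs, transcripts of all 3 chains of the Lama4, Lamb1 and Lamc1 trimer were found together in 51.6% of wCAPs and 35.5% of wFAPLs, and in 40.2% of bCAPs and 28.3% of bFAPLs. Transcripts of Lama2, Lamb1 and Lamc1 were found together in 13.9% of wCAPs and 32.0% of wFAPLs, and in 16.9% of bCAPs and 30.8% of bFAPLs. These shares depend on how often each chain is found by itself. In thinned wCAPs, Lama4 was found in 84.1%, Lamb1 in 73.7%, Lamc1 in 81.2% and Lama2 in 27.3%. In thinned wFAPLs the values were 66.8%, 62.1%, 81.6% and 57.4%. Whether chains occur together beyond this was not tested.

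Mural markers moved with FAPLs, so the cells were also split by UMIs of Myh11 or Rgs5, genes of smooth muscle cells and pericytes. This split was chosen after the values had been seen. Such UMIs were found in 41.4% of wFAPLs, 41.6% of bFAPLs, 10.8% of wCAPs and 21.6% of bCAPs. Lama5 was at 14.6 CPM (10.6 to 19.6) in wFAPLs with them and 0.963 (0.263 to 2.47) in wFAPLs without, and at 10.9 (7.61 to 15.2) and 2.31 (1.11 to 4.24) in bFAPLs. Without these cells, the log2 ratio of Lama5 in white FAPLs over CAPs was -0.13 and that in brown cells 1.52.

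Lama4 and Lamb1 also differed within FAPLs. Lama4 was at 83.5 CPM (73.5 to 94.5) in wFAPLs with UMIs of Myh11 or Rgs5 and 173 (161 to 187) in those without, and Lamb1 at 69.2 (60.2 to 79.3) and 118 (107 to 128). In bFAPLs the values were 82.8 (73.1 to 93.4) and 119 (109 to 129) for Lama4, and 82.8 (73.1 to 93.4) and 104 (94.9 to 114) for Lamb1. Without the cells with such UMIs, Lama4 had FAPL-to-CAP log2 ratios of -0.24 in white and -0.40 in brown cells, and Lamb1 of -0.32 and -0.28. Lama2 was at 110 CPM (98.2 to 122) in wFAPLs with and 108 (98.4 to 119) in wFAPLs without such UMIs, and at 78.7 (69.3 to 89.0) and 96.4 (87.4 to 106) in bFAPLs. Its ratio without these cells was 1.29 in white and 0.85 in brown cells. The ratio of Lamb2 without them was 0.54 and 0.61. The part of mural cells in these differences was not tested further.

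**Figure D4:**
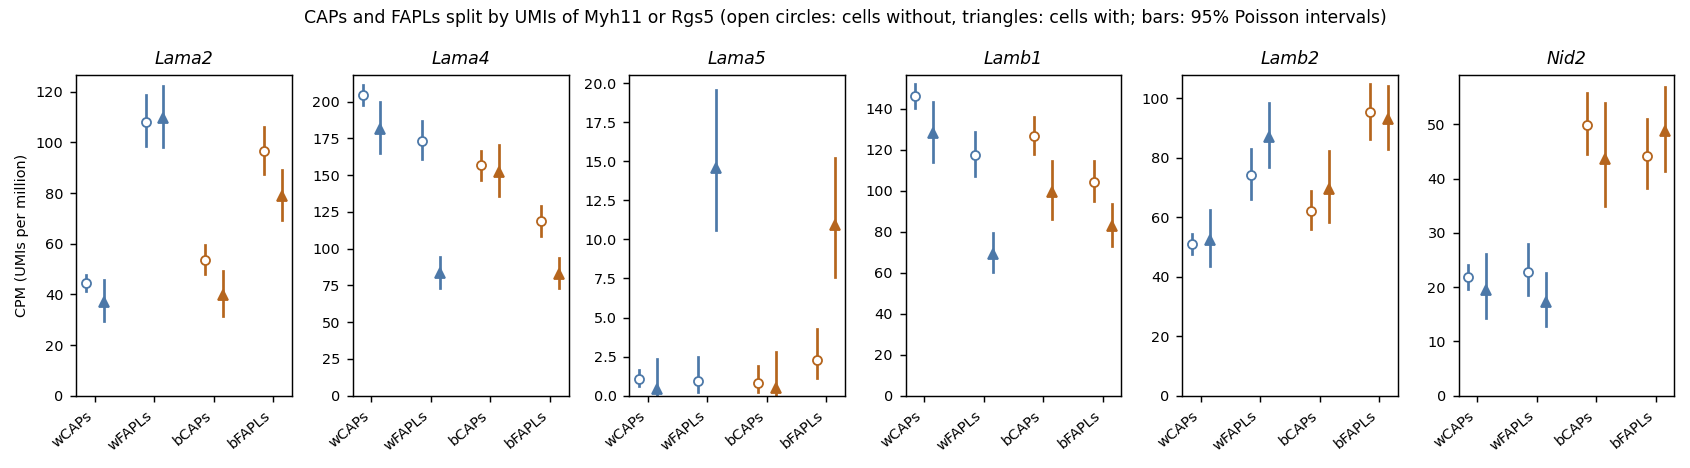
Levels (CPM, vertical axis, on a scale of its own for each gene) of 6 genes in CAPs and FAPLs, split into cells without (open circles) and with (triangles) UMIs of Myh11 or Rgs5; blue is white, brown is brown, and bars are exact 95% Poisson intervals. In wFAPLs, Lama5 lies at 14.6 CPM with and 0.963 without such UMIs, Lama4 at 83.5 with and 173 without, and Lama2 at about the same level in both.

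The depots were compared next, which sets 1 library against another. Over the labelled precursor cells, 0 of 8 genes were 2-fold higher in white cells, where 1.07% of 9041 genes were, and 0 of 8 were 2-fold lower, where 0.752% were. The widest difference among these 8 was in Nid2, a nidogen that can stand in for Nid1, at 20.0 CPM (18.9 to 21.2) in white and 34.8 (33.3 to 36.3) in brown cells, or a log2 ratio of white over brown of -0.80 (-0.90 to -0.69). Lama2 and Lamb2 were each at -0.26 (-0.32 to -0.19 and -0.33 to -0.19) and Hspg2 at -0.19 (-0.23 to -0.15), while Lamc1 was at 0.18 (0.14 to 0.22), Lama4 at 0.13 (0.09 to 0.17) and Lamb1 at 0.10 (0.05 to 0.15). Nid1 was alike in both, at 226 (222 to 230) and 231 (227 to 235) CPM, with a ratio of -0.03 (-0.07 to 0.00). Under 10 CPM, Lama5 had a ratio of 0.98 (0.53 to 1.43) and Agrn of -0.45 (-0.67 to -0.24).

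Nid2 differed more within CAPs and within FAPLs. It was at 21.6 CPM (19.5 to 23.7) in wCAPs and 48.4 (43.8 to 53.4) in bCAPs, and at 20.5 (17.3 to 24.1) in wFAPLs and 46.2 (41.4 to 51.3) in bFAPLs, with log2 ratios of -1.17 (-1.37 to -0.96) and -1.17 (-1.46 to -0.89). It was thus 1 of 8 genes 2-fold lower in white CAPs, where 2.14% of 9235 genes were, and 1 of 8 in white FAPLs, where 0.646% of 9136 were. None of the 8 was 2-fold higher in white cells, against 2.18% of genes in CAPs and 1.04% in FAPLs. The early white clusters lay between 15.7 and 24.1 CPM of Nid2, and the early brown clusters between 27.4 and 49.6, and the nearest intervals overlapped. The 15 differentiating wFAPLs reached 67.1 (45.9 to 94.7). How often other genes show such ranges in these libraries was not counted. As a share of nidogen UMIs, Nid2 held 8.14% (7.69 to 8.60) in white and 13.1% (12.5 to 13.6) in brown precursor cells. The ratio in FAPLs was -0.93 with labels carried over to all cells, -0.93 in G1 cells and -0.95 without cells with UMIs of Myh11 or Rgs5, and the ratio in CAPs was -0.63 in cells with Y-linked UMIs only, all short of 2-fold. Cells with Y-linked UMIs only made up 19.9% of white and 13.6% of brown precursor cells, and the ratio over all precursor cells was -0.83 in cells with Xist UMIs only and -0.59 in those with Y-linked UMIs only.

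**Figure D5:**
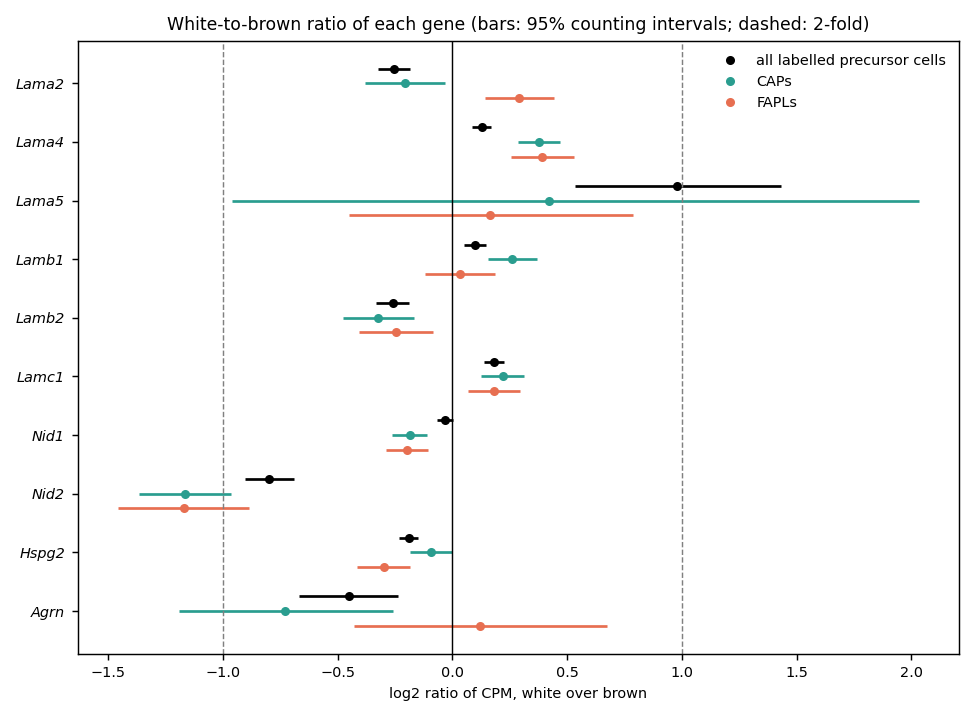
Log2 ratio of CPM in white over brown cells for each gene (horizontal axis), over all labelled precursor cells (black), CAPs (green) and FAPLs (orange), with 95% counting intervals; dashed lines mark 2-fold. Nid2 lies at -0.80 over all cells and at -1.17 in both CAPs and FAPLs, and Lama2 lies to the left of 0 in CAPs and to the right in FAPLs.

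Other members were within 2-fold between depots in CAPs and in FAPLs. Lama4 was higher in white cells by a log2 ratio of 0.38 (0.28 to 0.47) in CAPs and 0.39 (0.25 to 0.53) in FAPLs. Lamc1 had ratios of 0.22 (0.13 to 0.31) and 0.18 (0.07 to 0.30), and Lamb2 of -0.32 (-0.48 to -0.17) and -0.24 (-0.41 to -0.08). Lama2 had a ratio of -0.21 (-0.38 to -0.03) in CAPs and 0.29 (0.14 to 0.44) in FAPLs. Agrn, under 10 CPM, had -0.73 (-1.19 to -0.26) in CAPs and 0.12 (-0.43 to 0.67) in FAPLs, but the CAP ratio was 0.02 in thinned cells.

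The cell cycle was also compared, since the authors regressed it before clustering. Going from G1 to G2/M, 0 of 8 genes passed 2-fold in either direction in white cells, against 4.94% of 9137 genes higher and 0.755% lower, and 0 of 8 in brown cells, against 5.11% of 9119 higher and 0.537% lower. The 10 genes summed to 1043 CPM (1032 to 1054) in white cells in G1 and 875 (858 to 892) in G2/M, and to 1065 (1054 to 1075) and 903 (885 to 920) in brown cells. The median log2 ratio over the 8 genes was -0.17 in both, against -0.00 in white and 0.00 in brown cells over all genes counted. Lama2 was at -0.39 (-0.53 to -0.25) and -0.53 (-0.66 to -0.40), Lama4 at -0.34 (-0.41 to -0.26) and -0.48 (-0.57 to -0.40), and Lamb1 at -0.43 (-0.52 to -0.34) and -0.29 (-0.38 to -0.20). Nid2 was at -0.07 (-0.29 to 0.15) in white and 0.31 (0.16 to 0.47) in brown cells, or 0.07 in brown cells with carried-over labels. Phases were scored from expression of S and G2/M genes in each cell.

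Nid1 and Hspg2 varied little between clusters. Among clusters of at least 50 cells, Nid1 ranged from 182 CPM in wAPC 3 to 240.4 in wFAPLs and from 187 in bAPC 2 to 277 in bAPC 4, and it reached 524 (461 to 593) in differentiating wFAPLs. Hspg2 ranged from 144 CPM in wAPC 3 to 185 in wAPC 1 and from 149.7 in bAPC 3 to 208 in bAPC 4. Lamc1 ranged from 131 CPM in wAPC 2 to 229 in wAPC 4 and from 107 in bAPC 5 to 163 in bFAPLs. Agrn stayed between 2.92 and 9.43 CPM in these clusters.

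Glial cells, which wrap nerve fibres and make a basement membrane of their own, were the labelled cells with the most of these transcripts. The 20 white glial cells summed to 1699 CPM (1584 to 1821) of the 10 genes and the 22 brown ones to 1788 (1666 to 1915), while myeloid cells, 14 and 27 in number, summed to 273 (224 to 331) and 164 (137 to 196) and 8 brown myogenic cells to 477 (394 to 572). Agrn, which clusters acetylcholine receptors at the neuromuscular junction, was at 270.2 CPM (225 to 321) in white and 249.7 (206 to 300.2) in brown glial cells. Lama4 was at 426 (370 to 489) and 387 (332 to 448), Lama2 at 158 (125 to 198) and 192 (154 to 237), and Hspg2 at 331 (282 to 388) and 340.3 (289 to 398). Lamb1 was lower there than in precursor cells, at 48.6 (30.8 to 72.9) and 68.5 (46.5 to 97.2) against 129.9 and 121 CPM.

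Other genes of the basement membrane were counted from lists of its known parts. Of 8 basement membrane collagens, 5 had at least 10 CPM, and 2 of them, Col4a1 and Col4a2, which form the main type IV collagen network, were 2-fold higher in FAPLs in both depots. Over all genes counted, as given above, 2.25% were higher and 1.60% lower in white FAPLs, and 1.86% higher and 2.01% lower in brown FAPLs, and the counts here and for receptors stand beside those shares. Col4a1 was at 946 CPM in wFAPLs against 264 in wCAPs, a log2 ratio of 1.84 (1.79 to 1.89), and at 1269 in bFAPLs against 263 in bCAPs, or 2.27 (2.20 to 2.34). Among the 8 genes counted above, Lama2 was the nearest to this, with 1.32 and 0.82, while Nid1, which links laminin to this collagen, had 0.10 and 0.11. Among 17 linkers and modifiers, 2 of the 11 counted in white cells were higher in FAPLs (Tinagl1 and Fras1) and 0 lower. Of the 13 counted in brown cells 4 were higher (Tinagl1, Fras1, Ntn1 and Ntn4) and 1 lower (Fbln1). Each of these genes called higher was under 10 CPM in the CAPs of that depot and was counted only through its level in FAPLs. The direction of these calls was thus set by the filter, and the counts are no support for a difference. Tinagl1, a matricellular protein of vascular basement membranes, was at 27.9 CPM in wFAPLs against 8.97 in wCAPs and at 998 in differentiating wFAPLs. The split by UMIs of Myh11 or Rgs5 was not made for these genes or for the receptors below. The part of such cells in their ratios was not tested.

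Receptors for these ligands were counted from a list of 13. In white cells 3 of the 7 counted were 2-fold higher in FAPLs, and in brown cells 2 of 7, with 0 lower in either. Bcam, a receptor for laminin alpha 5, was at 14.5 CPM in wFAPLs against 1.60 in wCAPs, a log2 ratio of 3.18 (2.59 to 3.81), and at 13.7 in bFAPLs against 4.14 in bCAPs, or 1.72 (1.15 to 2.33). It was at 176 CPM (140.5 to 218) in differentiating wFAPLs, the cluster with the highest Lama5. Itga6, an integrin chain that pairs to bind laminins, had ratios of 2.05 (1.69 to 2.41) and 1.06 (0.68 to 1.46). Itga1, which binds collagen IV and laminin, had 1.51 (1.37 to 1.65) in white cells. Bcam in both depots and Itga6 in white cells were under 10 CPM in CAPs and were counted only through FAPLs. The direction of those calls was thus set by the filter, and they are no support for a difference. Of the 5 other laminin chains, Lama1 was counted in white cells, with a ratio of 0.13 (-0.29 to 0.53). Lama3 was counted in brown cells, only through its level in bCAPs, and was 2-fold lower in bFAPLs.

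Likeness of pattern was measured as the Pearson correlation of log2(CPM + 1) over the 13 clusters of at least 50 cells, each centred on its depot, among 4460 genes. The clusters share libraries and phases, so the values are a description. The most alike gene was Nfkbiz for Lama2 (0.89), Gli3 for Lama4 (0.88), Qpct for Lama5 (0.97), Enox1 for Lamb1 (0.91), Ltbp3 for Lamb2 (0.94), Fam20a for Lamc1 (0.90), Daam1 for Nid1 (0.97), Hivep3 for Nid2 (0.89), Ccnd2 for Hspg2 (0.88) and Golga7 for Agrn (0.90). The next were Man1c1, Zfand6, Cpe, Dock11, Crip2, Tnks, Map1a, Cbx6, Csnk1e and Atp6v0a2, in the same order. Among members, the highest value was between Lama5 and Lamb2 (0.90), followed by Lama4 and Lamb1 (0.75), and the lowest was between Lama4 and Lama5 (-0.70). Lama5 was at 6.69 CPM in wFAPLs, 5.97 in bFAPLs and at most 1.11 in the other clusters used. All its values here thus rest mainly on those FAPL clusters and on few UMIs. Agrn was under 10 CPM in every cluster used, so its values are limited likewise. Lamb1 and Lamb2, which take the same place in a trimer, had -0.47.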

How the data were processed

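Per the labels and the study's methods, the authors aligned 10x Genomics reads to GRCm38 with Cell Ranger 7.0.1, and the deposited matrices hold UMI counts per gene and called cell without normalization. Of 5261 white and 7009 brown cells, with 504 to 120708 UMIs each, the authors' limits (3900 to 7700 genes, 6000 to 60000 UMIs, 1.7 to 5% mitochondrial) kept 4407 and 6137, the latter slightly below the number the study states. Cluster labels came from a shortened copy of the study's source data, which name the early clusters W1 to W4 and B1 to B5, read here as wAPC 1 to 4 and bAPC 1 to 5. For unlabelled cells, labels were carried over from 15 nearest labelled neighbours over 10 components and 2000 variable genes. Held-out cells got their own label back in 89.5% (white) and 83.9% (brown).

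Counts were summed per cluster. With 1 library per depot no test was run, so genes were counted past 2-fold among those with at least 10 CPM in either group. A count of 0 allows up to 3 counts. Intervals cover counting error only. No doublet caller was run. The marker check of glial cells is not reported here. Named genes are the 10 members, genes of the fixed lists, and for each member the 2 genes most alike with at least 50 CPM in a cluster. Members and lists were chosen with earlier results of these data known. The intervals were tested on counts simulated from the Poisson model that they assume. That test checks their computation and cannot show how they hold under spread between cells. Cells without UMIs of Myh11 or Rgs5 are an alternative chosen after seeing the data. Alternatives were carried-over labels, thinning, per-cell means, median-ratio size factors, cells of 1 sex, G1 cells, unfiltered cells and other level filters. Python 3.11.15, numpy 2.4.6, scipy 1.17.1, pandas 2.3.3, scikit-learn 1.9.0 and scanpy 1.11.5 were used, with genes placed by GENCODE on GRCm38.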

Additional observations from a re-analysis of the deposited data

Results flagged for a closer look

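Lama2, Agrn, Hspg2 and Nid2 had log2 ratios of opposite sign in 2 groups under the same contrast. With 1 library per depot the differences were not tested, and the intervals cover counting error only. For Lama2, the ratio of white over brown cells was -0.21 in CAPs and 0.29 in FAPLs, a difference of 0.50 (0.27 to 0.73), and both ratios had intervals that left out 0, although the FAPL ratio was -0.14 in cells with Y-linked UMIs only. For Agrn, which was under 10 CPM in all 4 clusters, the ratio of FAPLs over CAPs was 0.72 in white and -0.13 in brown cells, and that of white over brown was 0.12 in FAPLs and -0.73 in CAPs, a difference of 0.85 (0.16 to 1.54) either way. The brown ratio was 0.20 with carried-over labels, 0.01 in thinned cells and 0.52 in cells with Y-linked UMIs only, and the CAP ratio was 0.02 in thinned cells and 0.22 in cells with Y-linked UMIs only. For Hspg2, the ratio of FAPLs over CAPs was -0.05 in white and 0.16 in brown cells, a difference of -0.21 (-0.35 to -0.06), but the white ratio was 0.02 in cells with Xist UMIs only and the brown ratio -0.17 in cells with Y-linked UMIs only. For Nid2, the ratio of G2/M over G1 was -0.07 in white and 0.31 in brown cells, a difference of -0.38 (-0.64 to -0.12), but the white ratio was 0.15 in thinned cells and the brown ratio 0.07 with carried-over labels.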

How the results depend on the processing

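No paired analysis was possible because there was 1 library per depot and none was replicated. Of 150 counts and shares under an alternative setting, 137 stayed within 1.5 times the reported count or within the reported share's interval, and 13 moved. Most of the reported counts were 0, and a 0 that stays 0 is scored here as unchanged. Ratios of single genes are not in this tally. For wFAPLs over wCAPs, 67 of 79 such values lay within the reported interval and 8 had the other sign. For white over brown precursor cells, 71 of 80 lay within it and 0 had the other sign. With no filter on low values, 2 genes instead of 1 were 2-fold higher in wFAPLs than in wCAPs and 1 instead of 0 in bFAPLs than in bCAPs, Lama5 being added in each. In cells with Y-linked UMIs only, the white count was also 2, again with Lama5, which had 0 UMIs in the 129 wCAPs of that kind. Nid2 was no longer counted, so that 0 genes were 2-fold lower in wFAPLs than in bFAPLs, with carried-over labels, in G1 cells and without cells with UMIs of Myh11 or Rgs5, an alternative added after seeing the data, and 0 were in wCAPs against bCAPs in cells with Y-linked UMIs only. The share of Lama4 among alpha chains moved to 73.3% (white precursor cells) and 55.3% (wFAPLs) in thinned cells. In cells with Y-linked UMIs only, it moved to 73.4% (white precursor cells), 80.2% (wCAPs), 72.1% (bCAPs) and 41.1% (bFAPLs). The log2 ratio of Lama5 in wFAPLs over wCAPs turned to -0.13 without cells with UMIs of Myh11 or Rgs5. No other gene past 2-fold changed direction under the alternatives run. The causes were not tested.

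Depth limits Lama5, with 19 UMIs in wCAPs and 6 in bCAPs, and Agrn, at under 10 CPM. The 50 to 129 CAPs and 47 to 57 FAPLs with Y-linked UMIs limit that alternative.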

Other observations

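Some basement membrane genes outside the list differed more between depots than any of the 10 did over all precursor cells. Of 11 linkers and modifiers counted there, 1 was 2-fold higher in white cells (Sulf1) and 2 were lower (Npnt and Egfl6). Over all genes counted, 1.07% were higher and 0.752% lower. Of 5 collagens and 6 receptors counted, 0 passed 2-fold in either direction, and no other laminin chain reached 10 CPM. Lama3, the alpha chain of epithelial laminins, was therefore compared in CAPs. It was at 11.0 CPM (8.82 to 13.5) in bCAPs, 2.26 (1.31 to 3.61) in bFAPLs and at most 1.37 in the early brown clusters. In wCAPs it had only 3 UMIs, a log2 ratio of wCAPs over bCAPs of -6.15 (-8.45 to -4.55). Lama3 was counted there only because bCAPs reached 10 CPM, so the direction of its call was set by the filter. Of all genes counted in CAPs, 2.14% were 2-fold lower in white cells. Npnt (nephronectin), an integrin ligand, was at 4.41 CPM in white and 16.6 in brown precursor cells, a ratio of -1.91 (-2.12 to -1.71). Egfl6 was at 3.96 and 17.5, or -2.15 (-2.36 to -1.94). Both were counted only through brown cells, so the same limit holds. Sulf1, which trims sulfate from heparan sulfate chains such as those of perlecan and agrin, was at 209 CPM in white and 101 in brown cells, or 1.05 (1.01 to 1.10). Lama1 was lower in G2/M than in G1, at 4.57 and 10.3 CPM in white cells, a ratio of -1.17 (-1.61 to -0.76). In brown cells it was at 5.57 and 10.2, or -0.87. Lama1 was counted only through G1 cells in both depots.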
